A study of Mus musculus with 12 samples.

Results

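Peroxisomes import their enzymes ready-made, and their upkeep and their chemistry are carried by different genes. The 35 mouse genes described here were listed by symbol and comprise 12 peroxins, which build the organelle, and 23 genes for its enzymes, its fatty acid transporters and the tether Acbd5. All 35 were among the 23183 gene symbols of every library. Of the 35, 34 passed the filter of at least 1 FPKM in at least 3 libraries; Abcd2 did not.

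Peroxins recognize enzymes in the cytosol, pull them through the peroxisomal membrane and recycle the receptor, while a smaller set inserts membrane proteins or drives division. Inside, peroxisomes shorten very-long-chain, branched and dicarboxylic fatty acids by beta-oxidation. By alpha-oxidation they take the carboxyl carbon off chains whose methyl branch blocks beta-oxidation. Their oxidases act on amino and hydroxy acids, and other enzymes begin ether lipid synthesis. Catalase degrades the hydrogen peroxide that these oxidases release. In the kidney, peroxisomes are most abundant in the proximal tubule, which relies on fatty acids for energy.

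Kidney cortex was collected from male C57BL/6N mice, 6 to 7 weeks old, on day 7 after unilateral ureteral obstruction (UUO), a model of scarring made by tying a ureter. The opposite, contralateral (CL) kidney of operated mice served as the control. Wild-type (WT, Acot12+/+) mice and Acot12-/- mice, which carry a nuclease-made mutation of the acyl-CoA thioesterase gene Acot12 in every cell, gave 4 groups of 3 libraries, called WT CL, WT UUO, Acot12-/- CL and Acot12-/- UUO. Acot12 was at 73.8, 52.7 and 78.1 FPKM in WT CL libraries and 9.14, 9.01 and 6.80 in Acot12-/- CL libraries, and after UUO at 9.98, 16.7 and 21.2 (WT) and 3.28, 1.80 and 3.86 (Acot12-/-), so the genotype groups did not overlap in either kidney.

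FPKM count fragments against transcript length and library depth, so that levels of different genes can be set side by side. Differences are given on the log2(FPKM + 1) scale, which understates changes of low genes, from limma with Benjamini-Hochberg adjustment over 13243 genes; a gene was called at an adjusted p under 0.05. Depth was 12480000 to 16350000 fragments in CL and 18580000 to 23010000 in UUO libraries. The samples are numbered 1 to 3 in each group and the labels name no animals, so p-values measure the spread between these libraries. Acot12-/- CL replicate 2 stood apart from replicates 1 and 3 of its group in step with the GC content of transcripts (Pearson r = −0.74 across 12767 genes, which are not independent replicates), and the list counts, list medians and named calls that rest on it, on the deposited scale, are given with and without it. Markers of the tubule, of injured tubule cells, macrophages, fibroblasts, lymphocytes and endothelial cells moved with UUO, and their values are given beside the results.

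UUO lowered most of the enzymes and most of the peroxins in WT kidneys, and the enzymes by more. Of the 22 enzymes, transporters and Acbd5 tested, 20 fell and 0 rose, with a median log2 difference of −1.46. Of the 12 peroxins, 8 fell and 1 (Pex26) rose, with a median of −0.81. Over all 13243 genes, 23.9% were called lower and 23.6% higher, with a median of 0.01. At the median, 54.8% of the CL mean FPKM was left for peroxins, and 35.3% for the enzymes tested. The libraries did not overlap and lay lower in UUO for 10 of the 12 peroxins and for 22 of the 22 others tested, against 35.8% of all genes, and lay higher for Pex26 and Abcd2, against 35.5%. Since the total FPKM was lower in UUO libraries, setting all totals equal raised the median of all genes by 0.61; then 2 peroxins were called lower and 1 higher, 13 enzymes lower and 0 higher, beside 7.91% of all genes lower and 56.1% higher. Relative to that shifted median, the list medians were −0.75 and −1.37.

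The heat map of the 35 genes shows each library against the mean of WT CL.

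**Figure D1:**
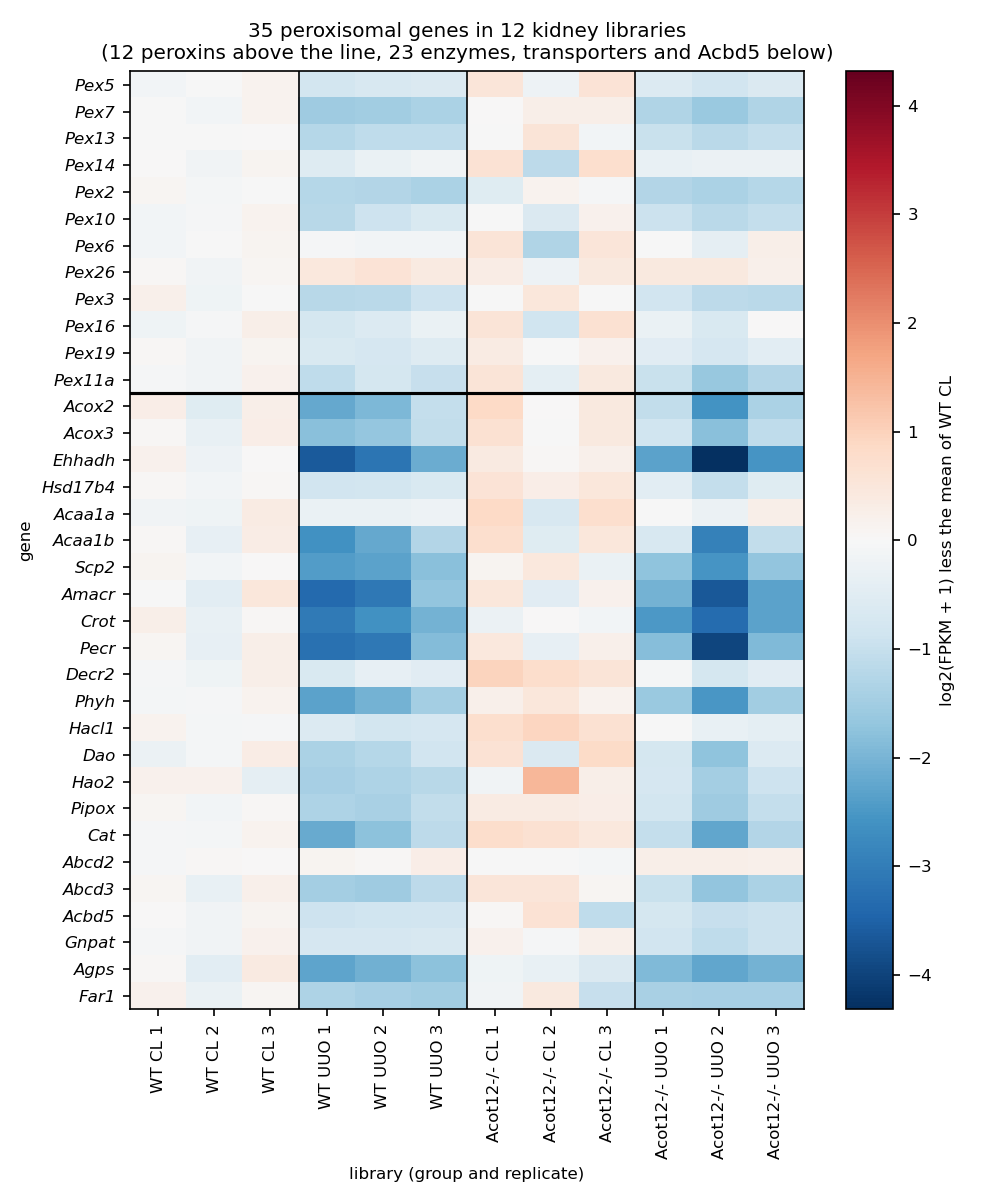
Heat map of log2(FPKM + 1) less the mean of the 3 WT CL libraries, for 35 genes (rows) in 12 libraries (columns), with the 12 peroxins above the horizontal line. Blue is lower and red higher; the UUO columns are blue for most genes, and more so below the line, while in the Acot12-/- CL replicate 2 column Pex6, Pex14 and Acaa1a are lower and Hao2, Acbd5 and Far1 higher than in replicates 1 and 3.

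Both import receptors fell. Pex7, the receptor for enzymes with the N-terminal targeting signal, was at 47.7, 45.2 and 53.8 FPKM in WT CL and at 16.3, 16.6 and 18.5 in WT UUO, a change of −1.46 (SE 0.14, adjusted p = 1.72e-05). This was the largest fall among the peroxins in this comparison, and the UUO libraries all lay below every CL library. Pex5, the receptor for the common C-terminal signal, went from 23.5, 25.4 and 28.5 to 14.4, 15.7 and 16.3 FPKM, a change of −0.70 (SE 0.20, adjusted p = 0.0122).

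Among the docking and ubiquitin ligase peroxins, 3 of 4 fell. Pex13, which forms the import site in the membrane, changed by −1.15 (SE 0.17, adjusted p = 0.000221), from 17.9, 18.1 and 18.5 to 7.08, 7.995 and 7.92 FPKM. Its partner Pex14 was at 25.3, 22.4 and 26.8 FPKM in CL kidneys and 16.5, 20.2 and 22.2 in UUO kidneys; these libraries did not overlap, but its estimate of −0.33 (SE 0.37, adjusted p = 0.489) was not called. Pex2 and Pex10 belong to the ring of ligases that ubiquitinates Pex5 for recycling, and they changed by −1.30 (SE 0.17) and −0.92 (SE 0.21) with adjusted p of 8.84e-05 and 0.00326. Pex2 had the highest level of the 12 peroxins in WT CL, at 69.3, 60.9 and 64.5 FPKM, and was at 26.8, 26.1 and 24.3 in UUO.

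Neither member of the pair that pulls ubiquitinated receptor back out of the membrane was called lower in WT kidneys. Pex6, a subunit of the AAA ATPase, had an estimate of −0.10 (SE 0.39, adjusted p = 0.85). Its 95% interval was −0.95 to 0.75, so a fall within that range could not be told from no change. Pex6 was at 18.02, 19.4 and 21.7 FPKM in CL kidneys and 18.8, 17.9 and 18.2 in UUO kidneys, and the groups overlapped. Pex26 (mm10 chromosome 6, 121183667 to 121198837), its membrane anchor, was at 5.42, 4.63 and 5.63 FPKM in CL and rose to 7.58, 8.29 and 7.08 in UUO (0.48 (SE 0.17, adjusted p = 0.0328)). All 3 UUO libraries lay above all 3 CL libraries for Pex26, and so it was higher in UUO in 3 of 3 same-numbered pairs of libraries. Its call was lost (adjusted p = 0.0543) with the replicate number as a block and in each of the 6 fits that left out a WT library (highest adjusted p = 0.109).

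Of the peroxins that insert membrane proteins, Pex3 and Pex19 fell, with log2 differences of −1.08 (SE 0.18) and −0.64 (SE 0.15), with adjusted p of 0.000472 and 0.00389. Pex3, the docking factor in the membrane, was at 22.1, 16.7 and 18.6 FPKM in CL kidneys and 7.75, 7.99 and 9.75 in UUO kidneys. Pex16 was at 24.9, 27.7 and 34.3 FPKM in CL kidneys and 16.5, 18.7 and 23.4 in UUO kidneys, without overlap, and its estimate of −0.55 (SE 0.34, adjusted p = 0.208) was called only in some fits: with the replicate number as a block, which called 26.3% of all genes lower and 24.7% higher, the adjusted p was 0.0474. Pex11a, which acts in division and is induced when peroxisomes proliferate, changed by −0.94 (SE 0.25, adjusted p = 0.00888), from 15.7, 14.8 and 18.9 to 7.14, 9.32 and 7.72 FPKM.

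Of the 8 beta-oxidation enzymes, 7 fell, and Ehhadh had the largest fall of all members. Ehhadh (mm10 chromosome 16, 21761287 to 21787807), the bifunctional enzyme that hydrates and dehydrogenates straight-chain and dicarboxylic intermediates, was at 352, 261 and 313 FPKM in WT CL kidneys and 23.7, 33.6 and 68.6 in UUO kidneys, a change of −2.98 (SE 0.47, adjusted p = 0.000331); 13.6% of the CL mean was left. Amacr, which turns branched fatty acids and bile acid intermediates into the form that can be oxidized, went from 131, 96.6 and 188 to 12.02, 14.7 and 40.7 FPKM (−2.72 (SE 0.49, adjusted p = 0.000819)). Acox2 and Acox3, the oxidases for branched substrates, changed by −1.73 (SE 0.41) and −1.51 (SE 0.28), with adjusted p of 0.00461 and 0.00106. Scp2, which encodes a thiolase and a lipid carrier, changed by −2.18 (SE 0.26, adjusted p = 5.74e-05), from 565, 478 and 526 to 97.5, 103 and 147 FPKM. Hsd17b4, the other bifunctional enzyme, fell less, with a log2 difference of −0.76 (SE 0.17) with an adjusted p of 0.00336, and kept 58.5% of its CL mean.

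The neighbouring thiolase genes Acaa1a and Acaa1b differed in size of change. Acaa1b was at 132, 98.6 and 159 FPKM in WT CL kidneys and 20.1, 27.05 and 51.9 in UUO kidneys (−2.03 (SE 0.53, adjusted p = 0.00826)). Acaa1a was at 50.97, 49.2 and 71.7 FPKM in CL kidneys and 46.1, 46.4 and 48.3 in UUO kidneys; the libraries did not overlap, but the estimate of −0.26 (SE 0.34, adjusted p = 0.546) was not called. The coding sequences of these genes are close copies, and reads could have been split between them, so the separate values of each are uncertain. Acaa1a also shares 6.57% of its exonic bases with Myd88 on the opposite strand.

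Of the 3 accessory enzymes, Crot and Pecr fell. Crot, which makes carnitine esters of shortened acyl chains for export, was at 478, 319.7 and 415 FPKM in CL kidneys and 47.4, 64.4 and 95.9 in UUO kidneys (−2.57 (SE 0.30, adjusted p = 4.53e-05)). Pecr, a trans-2-enoyl-CoA reductase, went from 565, 416 and 640.3 to 56.7, 62.1 and 143 FPKM (−2.72 (SE 0.52, adjusted p = 0.00116)). Decr2, the reductase for unsaturated chains, was at 27.6, 25.3 and 34.7 FPKM in CL kidneys and 17.9, 22.5 and 20.4 in UUO kidneys. The groups did not overlap for Decr2, and the estimate of −0.50 (SE 0.19, adjusted p = 0.0507) passed the threshold with the replicate block (adjusted p = 0.0348).

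Both alpha-oxidation genes fell, as did catalase and the 3 oxidases. Phyh, which hydroxylates phytanoyl-CoA, changed by −1.94 (SE 0.28, adjusted p = 0.000179), from 457, 472 and 545 to 97.8, 118 and 178 FPKM, and Hacl1, the lyase that follows it, by −0.69 (SE 0.14, adjusted p = 0.00208). Catalase (Cat) was at 341, 331 and 396 FPKM in CL kidneys and 77.7, 103 and 161 in UUO kidneys (−1.70 (SE 0.31, adjusted p = 0.000907)). The oxidases for D-amino acids (Dao), hydroxy acids (Hao2) and pipecolate and sarcosine (Pipox) changed by −1.14 (SE 0.38), −1.31 (SE 0.35) and −1.26 (SE 0.19), with adjusted p of 0.0261, 0.00848 and 0.000238. The Dao call was lost without CL replicate 3 or without UUO replicate 1 or 2 of WT mice (highest adjusted p = 0.0956).

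Of the transport genes, Abcd3, the ABC half-transporter for branched and dicarboxylic acyl-CoA, changed by −1.37 (SE 0.23, adjusted p = 0.000454), from 127, 94.7 and 138 to 42.5, 40.6 and 54.1 FPKM. Acbd5, which binds very-long-chain acyl-CoA and holds the peroxisome to the endoplasmic reticulum, was at 39.7, 35.7 and 43.1 FPKM in WT CL kidneys and 20.7, 21.4 and 21.6 in WT UUO kidneys (−0.86 (SE 0.32, adjusted p = 0.0409)). Its UUO libraries lay close together and well below the CL libraries, yet 9 of the 12 fits that left out a library did not call it, with a highest adjusted p of 0.110. Abcd2 was near the limit of detection, at 0.0280, 0.121 and 0.0810 FPKM in CL kidneys and 0.180, 0.124 and 0.304 in UUO kidneys, and was left out of the tests.

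Ether lipid synthesis fell at all 3 members. Agps, which swaps the acyl chain for an ether-linked alcohol, was at 72.96, 51.7 and 92.5 FPKM in CL kidneys and 13.7, 16.05 and 20.1 in UUO kidneys (−2.04 (SE 0.22, adjusted p = 3.23e-05)). Far1, the reductase that supplies the alcohol, went from 96.6, 69.2 and 89.5 to 32.97, 30.8 and 29.2 FPKM (−1.42 (SE 0.28, adjusted p = 0.00143)), and Gnpat, the first acyltransferase, from 36.6, 33.8 and 43.6 to 22.5, 22.5 and 23.2 (−0.71 (SE 0.14, adjusted p = 0.00175)).

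With all totals set equal, the estimates for Pex5, Pex19 and Gnpat, the called members that turned, were 0.0004, 0.07 and 0.0027, none of them called, and Pex26 rose by 1.11 (adjusted p = 0.000430).

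Changes in Acot12-/- kidneys were of the same order. UUO lowered 20 of the 22 enzymes, transporters and Acbd5 and raised 0, with a median log2 difference of −1.65, and lowered 8 of the 12 peroxins and raised 0, with a median of −0.93. Of all genes, 27.2% were called lower and 26.6% higher, with a median of −0.01. The libraries did not overlap and lay lower in UUO for 8 peroxins and 19 of the others, against 27.6% of all genes, and lay higher for Abcd2, against 27.8%. Medians of 48.3% and 31.8% of the CL mean were left for peroxins and enzymes. Without Acot12-/- CL replicate 2, the list medians were −0.98 for peroxins and −1.69 for enzymes, and 48.4% and 30.9% of the CL mean were left. The libraries then did not overlap and lay lower for 11 peroxins and 21 of the others, against 38.8% of all genes, and higher for Abcd2, against 34.7%. With all totals equal, 5 peroxins were called lower and 1 (Pex26, 0.66) higher and 18 enzymes lower, beside 11.7% of all genes lower and 45.9% higher, and the list medians relative to all genes were −0.87 and −1.57.

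The largest falls in Acot12-/- kidneys were those of Ehhadh (−3.28 (SE 0.47, adjusted p = 0.000114)), Amacr (−2.73 (SE 0.49, adjusted p = 0.000572)), Pecr (−2.68 (SE 0.52, adjusted p = 0.00096)) and Crot (−2.59 (SE 0.30, adjusted p = 2.34e-05)). Ehhadh was at 406, 319 and 357 FPKM in Acot12-/- CL kidneys and 61.3, 14.4 and 52.1 in Acot12-/- UUO kidneys. Pex7 again had the largest fall among peroxins (−1.56 (SE 0.14, adjusted p = 5.22e-06)), and Pex11a changed by −1.46 (SE 0.25, adjusted p = 0.000422). Cat was at 603, 557 and 491 FPKM in CL kidneys and 172, 73.5 and 147 in UUO kidneys (−2.15 (SE 0.31, adjusted p = 0.000123)), and Decr2 at 57.8, 50.03 and 43.3 and 26.98, 16.6 and 20.3 (−1.22 (SE 0.19, adjusted p = 0.000236)). Without CL replicate 2, all 8 of the genes named here were still called, at −3.36 (Ehhadh), −3.01 (Amacr), −2.90 (Pecr), −2.53 (Crot), −1.53 (Pex7), −1.77 (Pex11a), −2.14 (Cat) and −1.22 (Decr2), with a highest adjusted p of 0.00148, and Pex11a then had the largest fall among peroxins.

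**Figure D2:**
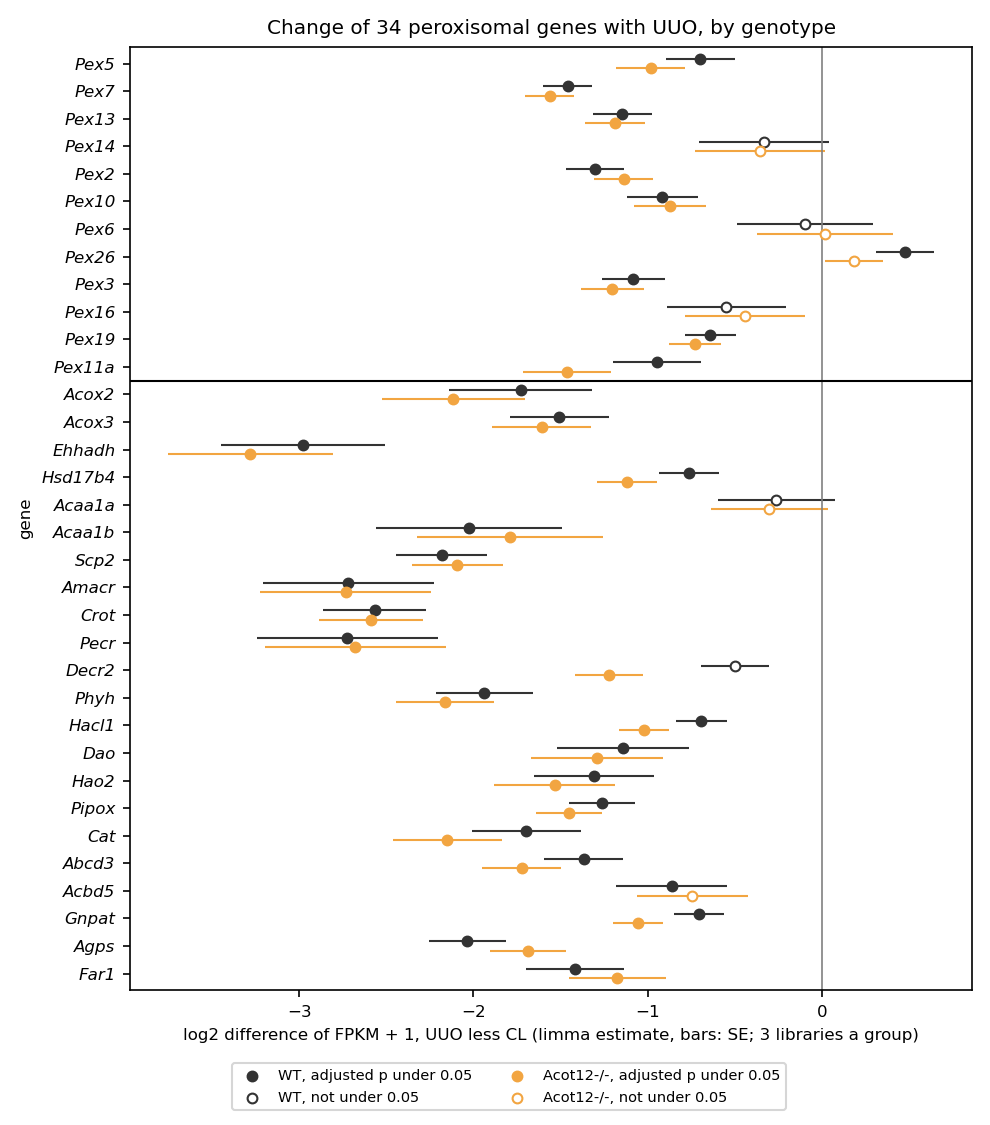
Log2 difference of FPKM + 1 between UUO and CL kidneys (x axis) for 34 genes (y axis), in WT (black) and Acot12-/- (orange) mice; points are limma estimates, bars the SE, and filled points have an adjusted p under 0.05. Peroxins above the line lie between −1.56 and 0.48 and the genes below it between −3.28 and −0.26.

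The members that were not called in Acot12-/- kidneys were Pex6, Pex14, Pex16, Pex26, Acaa1a and Acbd5. Of these, Pex6 was at 29.6, 7.37 and 28.5 FPKM in Acot12-/- CL kidneys and 19.3, 14.6 and 23.7 in UUO kidneys, and Pex14 at 39.2, 10.9 and 41.8 and 19.7, 20.8 and 20.6. For both, CL replicate 2 lay below every UUO library while replicates 1 and 3 lay above them. Without that library, Pex6 (−0.60, adjusted p = 0.00816), Pex14 (−0.96, adjusted p = 0.000113), Pex16 (−0.93, adjusted p = 0.00281) and Acaa1a (−0.80, adjusted p = 0.00252) were called lower, which made 11 peroxins and 21 enzymes, beside 33.9% of all genes lower and 29.5% higher. Pex26 had an estimate of 0.18 (SE 0.17) with the library and −0.01 without it. Acbd5 was at 40.4, 61.7 and 17.96 FPKM in CL kidneys and 22.9, 19.4 and 20.5 in UUO kidneys (−0.74 (SE 0.32, adjusted p = 0.0662)), with CL replicate 2 the highest and replicate 3 the lowest of all 12 libraries. Its estimate was −0.36 (adjusted p = 0.231) without CL replicate 2 and −1.22 (adjusted p = 0.000233) without CL replicate 3, so its size and its call rested on single libraries. Leaving out replicate 2 also narrowed the shared spread, and 10 peroxins were then called lower in WT kidneys, Pex14 and Pex16 among them, and 1 higher, beside 31% and 30.8% of all genes.

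The deviation of this library followed GC content within the 34 members as well (Pearson r = −0.87 across genes of a single comparison of libraries). All 11 members with a transcript GC content under 45% lay above the mean of replicates 1 and 3, with a median of 0.52 on the log2 scale. All 11 with a GC content of 52% or more lay below it, with a median of −1.11, and 8 of the 12 between lay below. Hao2 was at 113, 342 and 151 FPKM in Acot12-/- CL, Far1 at 76.7, 113 and 41.5 and Dao at 316, 135 and 365. With values smoothed on GC content in each library, chosen after seeing the data, Pex6 (−0.63, adjusted p = 0.0172) and Pex16 (−0.94, adjusted p = 0.00160) were called lower with UUO in Acot12-/- kidneys, while Pex14 (adjusted p = 0.289) and Acaa1a (adjusted p = 0.0809) were not.

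**Figure D3:**
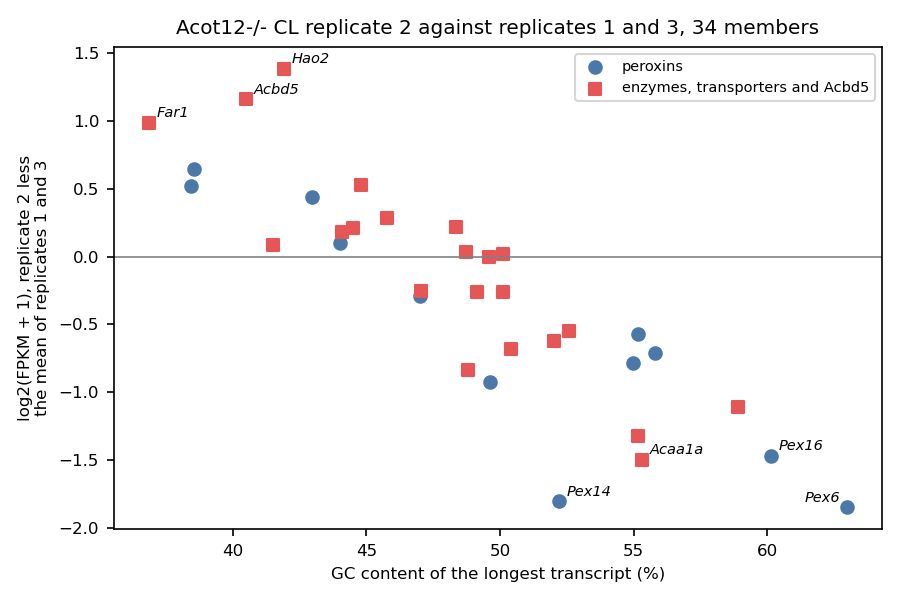
Difference in log2(FPKM + 1) between Acot12-/- CL replicate 2 and the mean of replicates 1 and 3 (y axis) against the GC content of the longest transcript (x axis), for 12 peroxins (circles) and 22 enzymes, transporters and Acbd5 (squares). Members at low GC content lie above 0 and those at high GC content below it.

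The peroxins and the enzymes can also be followed library by library. The summed FPKM of the 23 enzyme and transport genes was 11.6 to 13.1 times that of the 12 peroxins in WT CL and 11.5 to 15.7 times in Acot12-/- CL, where replicate 2 was the highest and replicates 1 and 3 were at 13.8 and 11.5. In UUO the ratio was 5.46 to 7.82 in WT and 4.85 to 8.07 in Acot12-/- libraries, below every CL library. Peroxin sums went from 303 to 401 FPKM in the 6 CL libraries to 163 to 199 in the 6 UUO libraries, and enzyme sums from 3521 to 5171 to between 792 and 1563. These ratios describe the lists, whose members were not chosen at random, and carry no test.

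Enzymes varied more than peroxins among obstructed kidneys, and among CL kidneys too. The highest of the 6 UUO libraries was at the median 1.33 times the lowest for peroxins and 1.78 times for the 22 enzymes tested, up to 4.95 times for Acaa1b. In WT CL libraries the same medians were 1.21 and 1.43 times. Over the CL libraries of both genotypes, Acot12-/- CL replicate 2 among them, they were 1.73 and 2.00 times. Acot12-/- UUO replicate 2 was the lowest library for 18 of the 22 enzymes, Acot12-/- UUO replicate 1 the highest for 11 and WT UUO replicate 3 the highest for 7. Ehhadh, Amacr and Pecr were at 14.4, 9.57 and 32.9 FPKM in Acot12-/- UUO replicate 2, against 61.3, 31.6 and 149.7 in replicate 1.

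Proximal tubule markers moved with the enzymes. Of 12 such markers, 11 were tested, and 10 fell with UUO in WT and 11 in Acot12-/- kidneys; the twelfth, Kap, was listed at 0 in some CL libraries and reached 189588 FPKM in another. The other 11 summed to 3254 to 4446 FPKM in WT CL and 3570 to 6697 in Acot12-/- CL, and to 450.1 to 1071 (WT) and 278 to 1349 (Acot12-/-) after UUO, and none of the 12 was at 0 throughout a group. Relative to the mean of WT CL, the median marker lay at −2.47, −2.15 and −1.67 in WT UUO and at −1.09, −3.28 and −1.29 in Acot12-/- UUO. The median enzyme lay at −1.63, −1.59 and −1.12 and at −0.91, −1.77 and −1.18 in the same libraries, and the median peroxin at −0.94, −0.73 and −0.65 and at −0.71, −0.99 and −0.83. Macrophage markers (9 genes) summed to 140.1 to 158 FPKM in WT CL and 620.2 to 737 in UUO, and to 51.3 to 108 and 663 to 843 in Acot12-/- kidneys. Fibroblast markers (9 genes) went from 147 to 189 up to 379 to 545 FPKM and from 50.9 to 114 up to 373 to 518. Injured tubule markers (5 genes, Havcr1 and Lcn2 among them) rose at 5 of 5 in each genotype, with median log2 differences of 4.85 in WT and 5.33 in Acot12-/- kidneys. They summed to 10.2 to 52.3 FPKM in WT CL and 1281 to 1319 in WT UUO, and to 5.62 to 42.05 and 1097 to 1350.5 in Acot12-/- kidneys. Markers of other tubule segments (7 genes, Umod and Slc12a3 among them) fell at 7 of 7 in WT kidneys (median −2.42) and 6 of 7 in Acot12-/- kidneys (median −1.78), and their sums went from 1999 to 3290.5 down to 405 to 997 FPKM and from 1868 to 2339 down to 424 to 847. Lymphocyte markers were called higher at 4 of 5 tested in each genotype. Of 7 endothelial markers, 3 were called lower and 1 higher in WT kidneys (median −0.23). In Acot12-/- kidneys 0 were called lower and 5 higher (median 0.82). The marker calls stand beside 23.9% of all genes lower and 23.6% higher in WT, and 27.2% and 26.6% in Acot12-/- kidneys. Without Acot12-/- CL replicate 2, whose library gave the lowest Acot12-/- CL sum of the 11 proximal tubule markers, that group's sums were 5267 to 6697 FPKM. Fibroblast sums were then 50.9 to 80.4 and other tubule sums 1868 to 2042, and macrophage and injured tubule sums kept their ranges. With UUO, 11 of 11 proximal and 6 of 7 other tubule markers (median −1.59) were then called lower. All 5 injured tubule markers (median 5.30), 4 of 5 lymphocyte and 5 of 7 endothelial markers (median 1.09) were called higher. These counts stand beside 33.9% of all genes lower and 29.5% higher. In bulk cortex, fewer tubule cells and less RNA for these genes per cell cannot be told apart, and the part of cell composition in the changes was not tested.

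**Figure D4:**
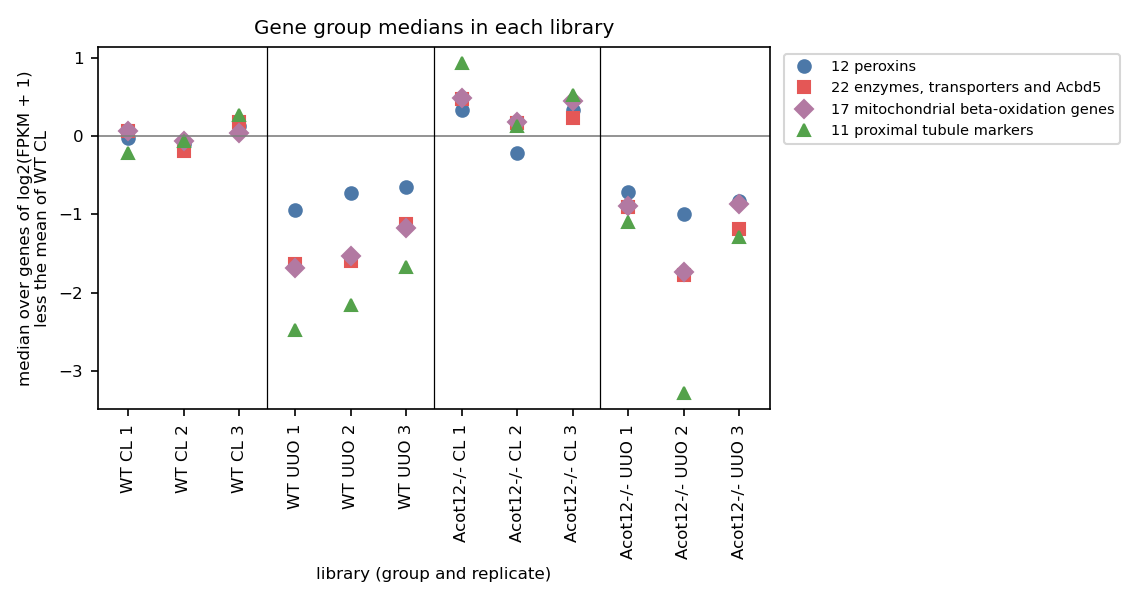
Median over the genes of each list of log2(FPKM + 1) less the mean of WT CL (y axis), in each of the 12 libraries (x axis), for 12 peroxins, 22 enzymes, transporters and Acbd5, 17 mitochondrial beta-oxidation genes and 11 proximal tubule markers. In the UUO libraries the peroxins lie between −0.99 and −0.65 and the markers between −3.28 and −1.09, and Acot12-/- UUO replicate 2 is the lowest for every list.

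Loss of Acot12 was not accompanied by a called difference among these genes in obstructed kidneys. By limma, 0 of 12 peroxins and 0 of 22 others were called higher or lower between Acot12-/- UUO and WT UUO, and 0 and 1 had an unadjusted p under 0.05; 0.0151% of all genes were called. The median differences were 0.04 and 0.08. The second of these, that of the enzymes, rested on single libraries: it was 0.43 without Acot12-/- UUO replicate 2, 0.30 without WT UUO replicate 3, −0.03 without WT UUO replicate 1 and −0.07 without Acot12-/- UUO replicate 1. With equal totals the medians were −0.12 and −0.09, beside −0.15 for all genes. Pex2 was at 26.7, 24.7 and 26.98 FPKM in Acot12-/- UUO and 26.8, 26.1 and 24.3 in WT UUO, a difference of 0.02 with a 95% interval of −0.34 to 0.39. Acbd5 differed by −0.02 with an interval of −0.71 to 0.67, and Pex5 by 0.01 with −0.42 to 0.44. For Ehhadh the estimate was −0.07 with an interval of −1.10 to 0.95, so that a change of 2-fold or nearly so in either direction could not be told from 0 at this spread. Narrower intervals were those of Pex7 (−0.24 to 0.38), Gnpat (−0.55 to 0.07) and Pex19 (−0.24 to 0.40).

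Hacl1 was the member with the unadjusted p under 0.05 in UUO kidneys. It was at 16.2, 13.04 and 12.04 FPKM in Acot12-/- UUO and 10.6, 9.16 and 9.67 in WT UUO, without overlap, a difference of 0.44 (SE 0.14) with an interval of 0.13 to 0.76 and an adjusted p of 1. Gnpat was at 20.97, 17.1 and 19.4 and 22.5, 22.5 and 23.2 FPKM, also without overlap, in the opposite direction (−0.24 (SE 0.14)). Of all genes, 5.5% and 6.48% did not overlap in these directions.

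In contralateral kidneys, 2 enzymes were higher in Acot12-/- than in WT mice. Hacl1 (mm10 chromosome 14, 31598730 to 31641286) was at 27.9, 31.9 and 26.8 FPKM in CL libraries of Acot12-/- mice, against 18.2, 15.5 and 15.8 in WT CL (0.77 (SE 0.14, adjusted p = 0.0135)), and Decr2 (mm10 chromosome 17, 26081208 to 26090337) at 57.8, 50.03 and 43.3 and 27.6, 25.3 and 34.7 (0.77 (SE 0.19, adjusted p = 0.0449)). Libraries of the genotypes did not overlap for either, and Hacl1 shares 31.1% of its exonic bases with the overlapping gene model Gm49387 on the same strand. None of the 12 peroxins was called by limma, and 0 had an unadjusted p under 0.05; of the 22 others, 3 had. Of all genes, 1.12% were called higher and 3.36% lower, and the members' share rests on these 2 genes. The libraries lay higher in Acot12-/- CL without overlap for 6 enzymes, against 8.6% of all genes, and lower for 0, against 9.73%; Cat was among the 6, at 603, 557 and 491 against 341, 331 and 396 FPKM (0.63 (SE 0.31, adjusted p = 0.338)).

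Both calls depended on the libraries used. That of Hacl1 was lost without WT CL replicate 2 or 3 (highest adjusted p = 0.0555), and that of Decr2 in 8 of 12 fits with a library left out (highest adjusted p = 0.168): without any of the WT libraries, Acot12-/- CL replicate 1 or Acot12-/- UUO replicate 3. Without Acot12-/- CL replicate 2, Pex5 (0.55), Pex6 (0.54), Pex14 (0.68) and Pex26 (0.36) were called higher, with Acaa1a (0.79) and Hsd17b4 (0.54) beside Hacl1 (0.70) and Decr2 (0.77); this made 4 of 12 peroxins and 4 of 22 others, against 11.6% of all genes called higher and 10.4% lower. The libraries then lay higher without overlap for 7 peroxins and 12 of the others, against 28.2% of all genes, and lower for 1 and 0, against 21.7%. In the same contrast, markers of other cell types were lower in Acot12-/- CL with all libraries in: 5 of 7 endothelial, 3 of 9 macrophage, 3 of 9 fibroblast and 3 of 5 lymphocyte markers were called. Of all genes, 3.36% were called lower in that fit. Endothelial sums were 30.6 to 55.9 FPKM in Acot12-/- CL (30.6 to 44.2 without replicate 2), against 88.1 to 149 in WT CL, and the median log2 difference of 11 proximal tubule markers was 0.51, with 0 called and 3 at an unadjusted p under 0.05. Without Acot12-/- CL replicate 2, 7 of 7 endothelial, 5 of 9 macrophage, 8 of 9 fibroblast and 3 of 5 lymphocyte markers were called lower and 2 of 11 proximal tubule markers higher (median 0.74). Their part in the differences was not tested.

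**Figure D5:**
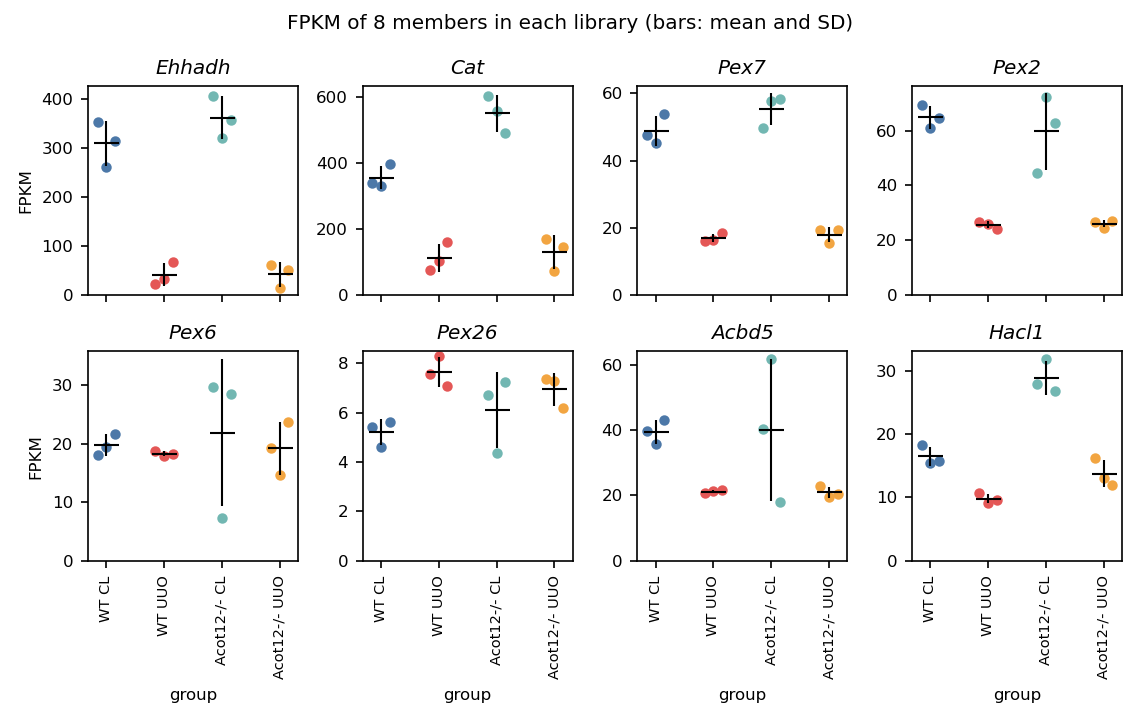
FPKM (y axis, from 0) of 8 members in each library of the 4 groups (x axis); points are libraries, and the bars give the mean and SD of 3. Ehhadh, Cat, Pex7 and Pex2 separate UUO from CL libraries in both genotypes, Pex6 and Acbd5 spread widely in Acot12-/- CL, Pex26 lies higher in WT UUO than CL, and Hacl1 lies higher in Acot12-/- than in WT libraries of the same kidney.

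Whether UUO acted differently in the 2 genotypes was asked with the interaction term, which shares all 12 libraries with the comparisons above. It was called for 0 of 12 peroxins and 0 of 22 others by limma, with 0 and 1 at an unadjusted p under 0.05, against 0.106% of all genes called. Decr2 had the largest estimate, −0.72 (SE 0.27, adjusted p = 0.349), with an interval of −1.32 to −0.12. The next largest was that of Pex11a, −0.52 (SE 0.36), whose interval of −1.30 to 0.26 spans 0. The median of the term was −0.07 for peroxins and −0.17 for the others. That of the others was −0.35 when replicate 1 of Acot12-/- UUO was left out, 0.13 when replicate 2 was, and 0.01 without WT UUO replicate 3, so its direction rested on single libraries. Without Acot12-/- CL replicate 2 the medians were −0.29 and −0.27, with 0 of 12 and 0 of 22 called and 5 and 3 at an unadjusted p under 0.05, against 2.99% of all genes called lower and 3.93% higher. Pex11a then had an estimate of −0.83 (adjusted p = 0.0751) and Decr2 of −0.72 (adjusted p = 0.131). With equal totals the medians were −0.24 and −0.35, beside −0.17 for all genes. Among the cell type markers, the term was called higher for 1 of 7 endothelial markers with all libraries in. Without Acot12-/- CL replicate 2 it was called higher for 5 of 7 endothelial, 6 of 9 fibroblast, 1 of 9 macrophage and 1 of 7 other tubule markers. The part of cell composition in the term was not tested.

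Other genes of the organelle and of fatty acid oxidation give the setting. Of 50 further peroxisomal genes, 45 were tested; 35 fell and 1 rose with UUO in WT kidneys, with a median of −1.21, and 37 fell and 1 rose in Acot12-/- kidneys, with a median of −1.24. The largest falls were those of Mpv17l, a membrane protein of the organelle (−3.10 and −3.06 in the 2 genotypes), Eci3, an enoyl-CoA isomerase (−2.98 and −2.94), and Nudt19, a hydrolase of coenzyme A (−2.66 and −2.44). The gene that rose in both was Paox, which oxidizes acetylated polyamines (0.90 and 0.63). Mitochondrial beta-oxidation genes fell at 17 of 17 and 16 of 17 members, with a median of −1.48 in each genotype. Of 13 autophagy receptors and machinery genes, 5 fell and 1 rose in WT and 6 fell and 1 rose in Acot12-/- kidneys, with medians of −0.33 and −0.48. These counts stand beside 23.9% of all genes lower and 23.6% higher in WT and 27.2% and 26.6% in Acot12-/- kidneys. With all libraries in, the share of autophagy genes called in either direction was near that of all genes, but their lower calls outnumbered the higher ones. Without Acot12-/- CL replicate 2, the further peroxisomal genes fell at 42 and rose at 1 (median −1.32), mitochondrial genes fell at 17 of 17 (median −1.64), and autophagy genes fell at 11 and rose at 1 (median −0.61) in Acot12-/- kidneys, against 33.9% of all genes lower and 29.5% higher. Between genotypes, none of these 3 lists had a called gene in UUO kidneys, with 2, 2 and 0 at an unadjusted p under 0.05. In CL kidneys, Abcd4 (0.88, adjusted p = 0.0337), Acsl1 (0.66, adjusted p = 0.0292) and Baat (1.07, adjusted p = 0.00904) were called higher in Acot12-/-. All 3 were further peroxisomal genes, and 1.12% of all genes were called higher and 3.36% lower. Without Acot12-/- CL replicate 2, all 3 were still called. The further peroxisomal genes then had 5 of 45 called higher and 1 lower. Mitochondrial genes had 5 of 17 and autophagy genes 3 of 13 called higher, and 0 lower. Of all genes, 11.6% were then called higher and 10.4% lower. In that fit Baat was also called lower for the interaction, against 2.99% of all genes. Baat was at a low level, with means of 0.39 FPKM in WT CL and 1.93 in Acot12-/- CL.

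The promoters of the members that moved most unlike each other are shown for their CpG content, which differs between constantly used and tissue-bound genes in general. Each line gives the 120 bases before the RefSeq transcription start (GRCm38.p6), read 5′ to 3′ on the strand of the gene, with CG dinucleotides in capitals: Ehhadh, with the largest fall (chr16:21787835-21787954, minus strand), Acaa1b and its neighbour Acaa1a (chr9:119157094-119157213, minus strand, and chr9:119341174-119341293, plus strand), and Pex26, the peroxin that rose (chr6:121183547-121183666, plus strand).
Ehhadh: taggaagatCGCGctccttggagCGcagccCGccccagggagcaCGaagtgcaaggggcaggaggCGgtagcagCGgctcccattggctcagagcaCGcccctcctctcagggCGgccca
Acaa1b: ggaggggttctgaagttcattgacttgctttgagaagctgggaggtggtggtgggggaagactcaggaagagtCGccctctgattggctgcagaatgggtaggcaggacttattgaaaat
Acaa1a: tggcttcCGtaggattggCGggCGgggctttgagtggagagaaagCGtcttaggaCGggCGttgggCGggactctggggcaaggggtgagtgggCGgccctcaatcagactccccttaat
Pex26: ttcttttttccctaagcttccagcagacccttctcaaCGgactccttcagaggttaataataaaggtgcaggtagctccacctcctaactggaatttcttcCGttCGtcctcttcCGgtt

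These stretches hold 9, 1, 8 and 4 CpG dinucleotides. In the 250 bases before the start, the 10 peroxins in the RefSeq table had a median of 14 and the 20 enzyme and transport genes a median of 12, against 6 for all 27025 genes. At most 6 were found for 1 peroxin and 5 enzymes (Acox2, Acaa1b, Dao, Hao2 and Pipox), and for 52.68% of all genes. The letters AGGTCA, a half-site bound by nuclear receptors such as PPARα, were found on either strand in the same 250 bases of 3 of 38 member starts (Cat, Dao and Scp2) and of 14.02% of all starts, and the paired form AGGNCANAGGNCA, which overlaps it, in 0 of 38 and in 0.3379% of all. A match describes the letters and not a bound site.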

How the data were processed

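RNA of 12 kidney cortex samples was prepared with a directional kit, and trimming, mapping and normalization were done for the authors by a sequencing service. The deposited values are FPKM per gene symbol; the unit was derived from the values, whose low entries are whole multiples of a step inverse to transcript length, and these steps gave the depth of 12480000 to 23010000 fragments. The submitters' processing notes name build mm10 and edgeR without a role; the aligner is not given in the sources used here.

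Genes with at least 1 FPKM in at least 3 libraries were tested, without 58 genes listed at 0 beside at least 10 FPKM in the same group. Fits used R 4.3.3 and limma 3.58.1 on log2(FPKM + 1) with all 4 groups and a variance trend, checked on simulated data. Deviations of same-numbered CL and UUO libraries from their group means correlated across genes at r 0.13, 0.36 and 0.34 in WT and 0.32, 0.19 and 0.32 in Acot12-/-. Those of different-numbered libraries correlated at −0.36 to 0.14 in WT and −0.18 to −0.075 in Acot12-/-. The numbers may pair the kidneys of an animal, but the labels do not say so, and the main fit did not pair them.

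Transcript lengths, GC content and overlaps come from GENCODE vM21 (22148 of 23183 symbols matched), promoters from RefSeq (30 of 35 members matched). Protein sequences were not used here. The members and lists were chosen with earlier results of these data known. All 35 members are named, and of the further peroxisomal genes the 3 called with the largest change per direction in each UUO comparison and any called by genotype. Marker genes were written as lists from general knowledge and summed per library.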

Additional observations from a re-analysis of the deposited data

How the results depend on the processing

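FPKM come without an estimate of their counting error, so the fits did not model it, and 3 libraries a group leave intervals of about 2-fold for variable enzymes. With equal totals, 3 peroxins (2 lower, 1 higher) and 13 enzymes were called for UUO against CL in WT kidneys, beside 7.91% of all genes lower and 56.1% higher. Gnpat (0.0027), Pex19 (0.073) and Pex5 (0.0004) turned upward uncalled there, and this scaling moves all genes. For Acot12-/- against WT CL, the 2 enzymes became 1 with no filter on low values, 0 with only the groups compared and 0 with equal totals; the cause was not tested. The estimate of Pex6 ran from −0.60 without Acot12-/- CL replicate 2 to 0.34 without replicate 1 for UUO against CL in Acot12-/-, and from −0.39 without replicate 1 to 0.54 without replicate 2 for Acot12-/- against WT CL, and with values smoothed on GC content, chosen after seeing the data, it was −0.63 for UUO against CL in Acot12-/-.

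With each library left out in turn, 8 to 11 peroxins and 18 to 21 enzymes were called for UUO against CL in either genotype. In the same fits 4925 to 8189 of all 13243 genes were called in WT and 5849 to 8400 in Acot12-/- kidneys. Between genotypes in CL kidneys, 0 to 4 peroxins and 0 to 4 enzymes were called. The 4 and 4 came without Acot12-/- CL replicate 2, where 11.6% of all genes were called higher and 10.4% lower. In UUO kidneys and for the interaction, 0 members were called. The call of Acbd5 in Acot12-/- kidneys appeared without CL replicate 3 and that of Acaa1b was lost without CL replicate 1 or UUO replicate 2, as was that of Dao without CL replicate 3 or UUO replicate 2. With no filter Abcd2 was called higher with UUO in both genotypes. The replicate block changed the calls of Decr2, Pex16 and Pex26 in WT kidneys and no other member call. It called 9 peroxins and 21 enzymes there, beside 26.3% of all genes lower and 24.7% higher. A pseudocount of 0.1, median-ratio size factors and keeping genes listed at 0 changed no member call.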
